A study of Mus musculus with 6 samples.

Results

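Mouse progenitors that lack Ebf1 were compared 24 hours after they received either a retrovirus for EBF1 or the empty virus. The comparison takes 4 of the 6 arrays of the series: 2 labelled EBF1 (MigY-EBF1 virus) and 2 labelled Control (MigR1 virus). The other 2 arrays, labelled Pax5 (MigR-Pax5 virus), serve below only to test whether a level with EBF1 differs from that with Pax5, and their values add to the estimate of the spread. All 3 groups are 1 Ebf1-/- pre-pro-B cell line, so every array shares the Ebf1 deletion. The line was grown on OP9 stroma in 10 ng per ml each of stem cell factor, IL-7 and FLT3 ligand, and transduced cells were sorted before RNA was taken. From 50 ng of total RNA, cDNA was made with a linear amplification kit (NuGEN Ovation Pico WTA) and hybridised to Affymetrix arrays. The labels do not say whether arrays 1 and 2 of a group came from separate transductions, so the p-values rest on differences between arrays of the same group, pooled over the 3 groups, and these differences may be technical. How much EBF1 protein the cells made is not given.

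EBF1 is a zinc-binding transcription factor with a helix-loop-helix dimer domain that binds a palindromic DNA site. It is needed for common lymphoid and pre-pro-B progenitors to enter the B lineage, where it works with the E proteins and, later, with Pax5. Its textbook targets are the surrogate light chain genes Igll1 and Vpreb, the signalling chains Cd79a and Cd79b, and Pax5 itself. The pre-B cell receptor is built from a heavy chain, the surrogate light chain and the CD79 dimer.

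Promoter sequences are shown first because the 4 largest rises fall in the surrogate light chain and CD79 genes. Each window is 300 bases, read on the gene's strand from 250 bases before the annotated start to 50 bases after it (RefSeq, GRCm38.p6). Capitals in Igll1 (chr16:16863936-16864235, minus strand), Bhlha15 (chr5:144190036-144190335, plus strand) and B3gnt8 (chr7:25627374-25627673, plus strand) mark the letters CCCNNGGG, the core of the palindrome known for EBF1. These 3 genes are among the 20 with the largest rises. Of the 20 largest rises that have a window in the table, 6 hold these letters (Cracdl, not shown, among them), against 20.7% of all tested genes with a window.
Igll1: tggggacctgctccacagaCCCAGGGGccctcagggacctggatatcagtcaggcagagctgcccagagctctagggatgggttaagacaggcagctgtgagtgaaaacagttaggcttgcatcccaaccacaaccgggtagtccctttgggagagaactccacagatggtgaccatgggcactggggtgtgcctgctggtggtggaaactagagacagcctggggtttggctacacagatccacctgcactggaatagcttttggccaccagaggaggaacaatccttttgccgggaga
Bhlha15: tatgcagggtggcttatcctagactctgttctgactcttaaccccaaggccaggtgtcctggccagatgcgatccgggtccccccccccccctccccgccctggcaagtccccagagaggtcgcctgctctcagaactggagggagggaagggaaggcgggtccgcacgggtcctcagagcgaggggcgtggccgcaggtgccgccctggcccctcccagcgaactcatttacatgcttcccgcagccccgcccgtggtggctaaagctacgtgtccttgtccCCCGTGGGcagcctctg
B3gnt8: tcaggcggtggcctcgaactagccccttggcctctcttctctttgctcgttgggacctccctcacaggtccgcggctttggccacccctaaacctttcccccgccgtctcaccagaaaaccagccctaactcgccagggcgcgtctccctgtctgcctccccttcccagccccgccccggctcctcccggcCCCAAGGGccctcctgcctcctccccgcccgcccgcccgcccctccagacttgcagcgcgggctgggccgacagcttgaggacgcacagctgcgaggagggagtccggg

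The windows of Vpreb1 (chr16:16869206-16869505, minus strand) and Vpreb2 (chr16:17980315-17980614, plus strand) hold no CCCNNGGG. They are shown because both genes rose and parts of their windows are nearly the same. With 1 window slid along the other, 153 of 156 overlapping bases were identical (98.1%), and capitals mark the longest identical run, of 91 bases.
Vpreb1: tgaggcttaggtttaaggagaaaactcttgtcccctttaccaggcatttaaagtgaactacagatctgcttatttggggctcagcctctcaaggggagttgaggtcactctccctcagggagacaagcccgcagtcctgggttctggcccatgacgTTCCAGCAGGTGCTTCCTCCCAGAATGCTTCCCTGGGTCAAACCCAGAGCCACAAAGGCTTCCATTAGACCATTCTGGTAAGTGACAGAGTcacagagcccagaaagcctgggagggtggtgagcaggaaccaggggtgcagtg
Vpreb2: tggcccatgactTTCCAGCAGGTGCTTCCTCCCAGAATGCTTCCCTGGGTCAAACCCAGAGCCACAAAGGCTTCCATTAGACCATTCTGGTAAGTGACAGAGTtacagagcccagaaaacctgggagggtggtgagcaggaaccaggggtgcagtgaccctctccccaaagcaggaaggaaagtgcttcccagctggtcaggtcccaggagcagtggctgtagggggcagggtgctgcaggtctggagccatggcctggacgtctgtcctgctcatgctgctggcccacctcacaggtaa

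In Igll1 the first letter of the match lay at -231 from the start site, in B3gnt8 at -59 and in Bhlha15 at 34. A match is a description of the letters and not a binding site.

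The values below are log2 signals after RMA (background correction, normalization between arrays, 1 value per probe set), so a difference of 1 is 2-fold. Of the 15295 genes tested, 857 were called with limma at an adjusted p of 0.05, which is 5.6% of all genes tested. They split into 480 higher with EBF1 (3.14%) and 377 lower (2.46%). At an unadjusted p under 0.05 there were 3047 genes. Changes of 2-fold or more were called for 150 genes (0.981%), 107 higher (0.7%) and 43 lower (0.281%). All 20 changes of 4-fold or more were rises, 9 of them 8-fold or more, and no called fall reached 4-fold. The median change of the called genes was 0.66 for rises and -0.58 for falls, and over all genes tested it was 0.009. No called gene had an EBF1 array inside the Control range, but both EBF1 arrays lay outside that range for 56.0% of all genes tested (30.2% above, 25.8% below). Every count of a gene list below is to be read beside these shares of all genes tested.

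Calls depended on each single array. With each of the 4 Control and EBF1 arrays left out in turn, 80 genes (0.523%) were called every time: 59 higher (0.386%) and 21 lower (0.137%). A gene described below as held is one of these 80. Probe sets with both group means at or below 4 gave 13 rises and 6 falls among 4255 genes, against 239 rises and 182 falls among the 4727 genes whose higher mean was 6 to 8. The arrays of a group correlated across genes at r = 0.9974 (Control) and 0.997 (EBF1), and genes are not independent replicates. The level of a probe set also depends on its probes, so levels are compared between arrays and not between genes. In bulk RNA, fewer cells of a kind and less RNA per cell cannot be told apart.

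**Figure D1:**
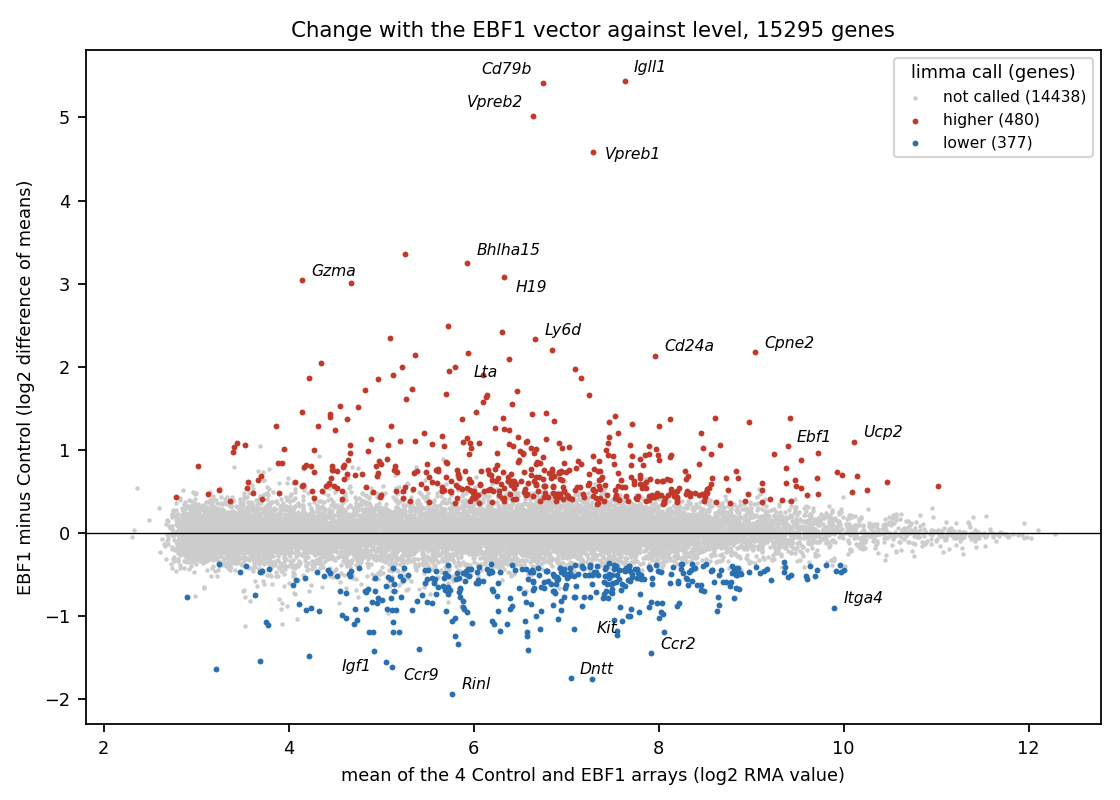
Each point is 1 of 15295 genes, with the mean of the 4 Control and EBF1 arrays on the x axis (log2) and the EBF1 minus Control difference of means on the y axis (log2). Red marks the 480 genes called higher and blue the 377 called lower, and 4 genes (Igll1, Cd79b, Vpreb2, Vpreb1) stand above 4.

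The cells were checked against marker genes. Ptprc (CD45, on blood cells) lay at 9.86 and 9.80 in Control and at 9.58 and 9.53 in EBF1, a difference that was not called. Of the progenitor markers, Flt3 was not called (-0.33), while Kit and Il7r, the receptors for stem cell factor and IL-7, fell by 0.99 and 0.39. The T-cell markers tested (Cd3e, Cd3d, Cd4, Cd8a) lay under 4 on all 4 arrays. Tcrg-C, a T-cell receptor gamma probe set outside the marker list, lay between 9.72 and 10.24. Of the 3 NK markers tested none was called. Klrd1 lay between 8.35 and 8.51, Prf1 under 4, and Klrb1c at 5.59 and 5.51 in Control and at 4.65 and 4.53 in EBF1. The summed stromal markers were 9.77 and 9.74 in Control and 10.11 and 10.10 in EBF1 on the log2 scale. Among the 12 stromal markers tested, Bgn (biglycan, a matrix proteoglycan) rose by 0.62 and 11 were not called. The part of stromal RNA in other differences was not tested.

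The vector gene was read next. Ebf1 lay at 8.87 on both Control arrays and at 9.88 and 9.96 on the EBF1 arrays, so the groups did not overlap. The rise was 1.05 (SE 0.08, limma adjusted p = 0.0023) and was held. In these Ebf1-/- cells the Control signal of 8.87 shows that the probe set still reads RNA, and the exons it covers are not given in the files. A second Ebf1 probe set moved the other way, from 4.70 and 4.75 to 4.37 and 4.25 (-0.42, limma adjusted p = 0.0836 over all probe sets). The Pax5 gene, not carried by the EBF1 virus, rose from 4.93 and 5.10 to 6.01 and 6.17, a change of 1.07 (SE 0.10, limma adjusted p = 0.0043). This call was lost when either of 2 arrays was left out.

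The genes of the surrogate light chain and CD79b rose most. Igll1 encodes lambda5, the invariant part of the surrogate light chain, and lay at 5.20 and 4.62 in Control and at 10.34 and 10.36 in EBF1. The 2 EBF1 arrays agreed to 0.02 while the Control arrays spread over 0.58. The rise was 5.44 (SE 0.19, 95% interval 4.98 to 5.90), or 43.4-fold, with a limma adjusted p of 2.4e-04. Cd79b, a signalling chain of the receptor, went from 4.11 and 3.98 to 9.45 and 9.46, a rise of 5.41 (SE 0.20). Vpreb1, the variable-like part of the surrogate light chain, went from 4.94 and 5.06 to 9.65 and 9.52, a rise of 4.58 (SE 0.14). Its near-copy Vpreb2 went from 4.36 and 3.91 to 9.19 and 9.12, a rise of 5.01 (SE 0.20). In none of the 4 did any EBF1 array come within 4 units of a Control array, and all 4 were held. Cross-hybridisation between Vpreb1 and Vpreb2 was not tested. On the Pax5 arrays the pair differed, with Vpreb1 at 6.24 and 5.87 and Vpreb2 at 4.28 and 3.78.

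Cd79a and some other genes linked to the receptor were not called. Cd79a, the partner of Cd79b, lay between 2.85 and 3.31 on the 4 arrays, with the Control arrays inside the EBF1 range and all near the 30th percentile of the arrays (2.92 to 2.99). Its difference of 0.07 had a 95% interval of -0.53 to 0.68. Vpreb3, a related chain, lay at 3.60 and 3.40 in Control and at 3.93 and 3.35 in EBF1, with overlapping groups. The adaptor Blnk differed by 0.18 (interval -0.06 to 0.42) and the kinase Blk by 0.32 (0.02 to 0.62), and neither passed limma's threshold. In the whole list of 30 pre-BCR and BCR signalling genes, 6 were higher and 3 lower, against 3.14% and 2.46% of all genes tested. Beyond the 4 above, Plcg2, a phospholipase downstream of the receptor, rose by 0.48 and the lectin Cd72 by 0.62. The kinase Lyn fell by 0.37 and the adaptor Dapp1 by 0.59. Rasgrp3, a Ras activator, fell by 0.77, but its EBF1 values of 2.47 and 2.57 lay below the lower quartile of those arrays. The list's median was 0.065, beside 0.009 over all genes. Its changes ran from -1.12, in a gene that was not called, to 5.44.

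**Figure D2:**
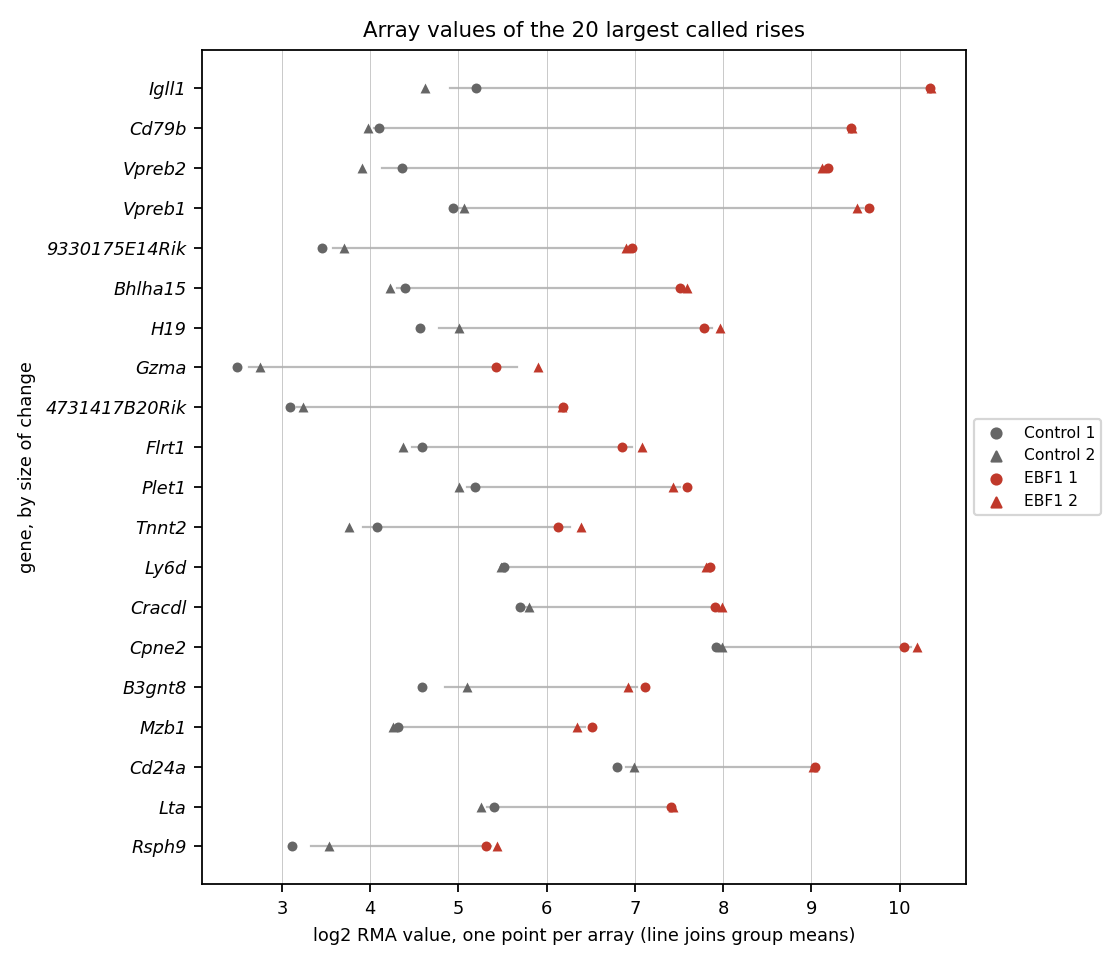
Array values of the 20 largest called rises, in order of size (y axis), with log2 RMA value on the x axis. Grey marks the 2 Control arrays and red the 2 EBF1 arrays, and the groups do not overlap for any of the 20 genes. The Control arrays of Gzma (2.49 and 2.76) are the dimmest in the plot.

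Bhlha15 (Mist1), a helix-loop-helix factor of secretory and plasma cells, went from 4.39 and 4.22 to 7.51 and 7.59. This rise of 3.24 (SE 0.11, limma adjusted p = 2.4e-04) was held. H19, an imprinted non-coding RNA of fetal tissues, went from 4.57 and 5.01 to 7.78 and 7.96, a rise of 3.08 that was held. Gzma, a granule protease of cytotoxic lymphocytes, went from 2.49 and 2.76 to 5.43 and 5.90. Its Control values lay around or below the lower quartile of those arrays, so the size of the fitted rise of 3.04 depends on a Control signal near the floor. The call was lost without 1 of the 4 arrays. The non-coding RNA 9330175E14Rik rose by 3.36 and 4731417B20Rik by 3.01, both held.

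Ly6d, a surface protein of B-committed lymphoid progenitors, went from 5.52 and 5.48 to 7.86 and 7.81 (2.33, held). Cd24a, a surface glycoprotein of early B cells, went from 6.80 and 6.99 to 9.04 and 9.02 (2.14, held). Lta, the cytokine lymphotoxin alpha, went from 5.41 and 5.26 to 7.42 and 7.44 (2.10, held). In all 3 the arrays of a group lay within 0.18 of each other. Plet1, a surface protein first described in placenta, rose by 2.42, and Flrt1, an adhesion protein with leucine-rich repeats, by 2.49. The Flrt1 call was lost in 3 of the 4 fits that left out an array. Cpne2 (copine 2, a calcium-dependent lipid-binding protein) went from 7.93 and 7.99 to 10.06 and 10.20. Its rise of 2.17 was held. B3gnt8, a Golgi enzyme that extends N-glycans, rose by 2.17, and its Control arrays differed by 0.51 (4.59 and 5.10). Mzb1, a chaperone of immunoglobulin assembly in the endoplasmic reticulum, rose by 2.15, and Cracdl by 2.20, both held. Tnnt2 (cardiac troponin T) rose by 2.34 and Rsph9 (a radial spoke protein of cilia) by 2.05, and neither was held.

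Genes of early B cells that are known targets of EBF1 were counted as a list, written with earlier results of these data known. Of 21 tested, 9 were higher and 1 was lower, and the EBF1 arrays lay above Control for 16 and below for 2. Among all genes tested, 3.14% were called higher and 2.46% lower, and the arrays lay above for 30.2% and below for 25.8%. The median was 0.254 (0.009 over all genes). Besides the genes above, Pou2f2 (OCT2, a B-cell octamer factor) went from 4.96 and 4.77 to 6.58 and 6.50, a rise of 1.67 that was held. Spib, an ETS factor, rose by 1.29, with EBF1 arrays at 4.77 and 4.25 and Control arrays both at 3.22. The 11 members not called included Foxo1 (-0.13), Lef1 (0.10) and Pou2af1 (0.13).

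Among 31 B-lineage transcription factors, 7 were higher and 3 lower (3.14% and 2.46% of all genes tested), with a median of 0.102. Bcl11a, a zinc finger factor needed for B lymphopoiesis, went from 7.49 and 7.38 to 8.88 and 8.74 (1.38, SE 0.09, held). Its groups were 1.25 apart at the nearest arrays. Bcl6, a repressor known from germinal centres, rose by 0.63 and Irf8 by 0.46. Ebf3, a relative of Ebf1, rose by 0.41 at a level of 3.46 to 3.94. The falls were in Zeb2 (-0.64), a repressor with homeodomain and zinc fingers, Runx1 (-0.58), a core haematopoietic factor, and Rel (-0.50), an NF-kB subunit. Ikzf1 (Ikaros) and Tcf3 (E2A) were not called, with changes of -0.08 (interval -0.27 to 0.10) and 0.25 (0.08 to 0.43).

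Of 25 surface genes of lymphoid progenitors, 4 were higher and 5 lower. With Ly6d and Cd24a, Cd52 (9.11 on both Control arrays, 10.03 and 9.93 in EBF1) and the tetraspanin Cd9 rose, by 0.87 and 0.81. Cd27, a TNF receptor family member of lymphoid progenitors, went from 8.03 and 8.05 to 6.94 and 7.06. Kit went from 8.18 and 8.14 to 7.13 and 7.21. Both fell by about 1 (-1.04 and -0.99) with non-overlapping arrays, though neither was held. Cd93 (-0.50), Spn (CD43, -0.49) and Il7r (-0.39) also fell.

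The largest falls were smaller than the largest rises. Rinl, an activator of Rab GTPases, went from 6.75 and 6.71 to 4.91 and 4.70, a fall of 1.93 (SE 0.15, limma adjusted p = 0.0026). Dntt, the terminal transferase that adds N nucleotides during V(D)J joining, went from 7.90 and 7.94 to 6.13 and 6.21, a fall of 1.75. Igf1, a growth factor, went from 5.79 and 5.85 to 4.26 and 4.29, a fall of 1.55. All 3 were held. The arrays of a group lay within 0.20 of each other for Rinl, 0.08 for Dntt and 0.06 for Igf1. The chemokine receptors Ccr9, which responds to a thymic and gut chemokine, and Ccr2, the receptor for CCL2, fell by 1.61 and 1.44. Slc16a12, a transporter of the monocarboxylate family, fell by 1.42, Psd3, an exchange factor for Arf GTPases, by 1.33, and Pstpip2, an F-BAR protein that bundles actin, by 1.39.

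Of the 20 largest falls, 13 were held. The others were Kcne3 (a potassium channel subunit, -1.48), Filip1 (a filamin-binding protein, -1.41), Scel (sciellin, -1.24), Bhlhe41 (a helix-loop-helix repressor, -1.19), Strip2 (-1.19), AY512938 (-1.19) and Mir340 (-1.64). Receptors of T and NK cells were among the falls: Cd244a (2B4) went from 7.16 and 7.23 to 5.95 and 5.96, and Klrb1f from 8.64 and 8.66 to 7.46 and 7.46. Tespa1, known for a role in T-cell receptor signalling in thymocytes, went from 8.11 and 8.22 to 6.96 and 6.92. These 3 fell by 1.24, 1.19 and 1.22, and were held.

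**Figure D3:**
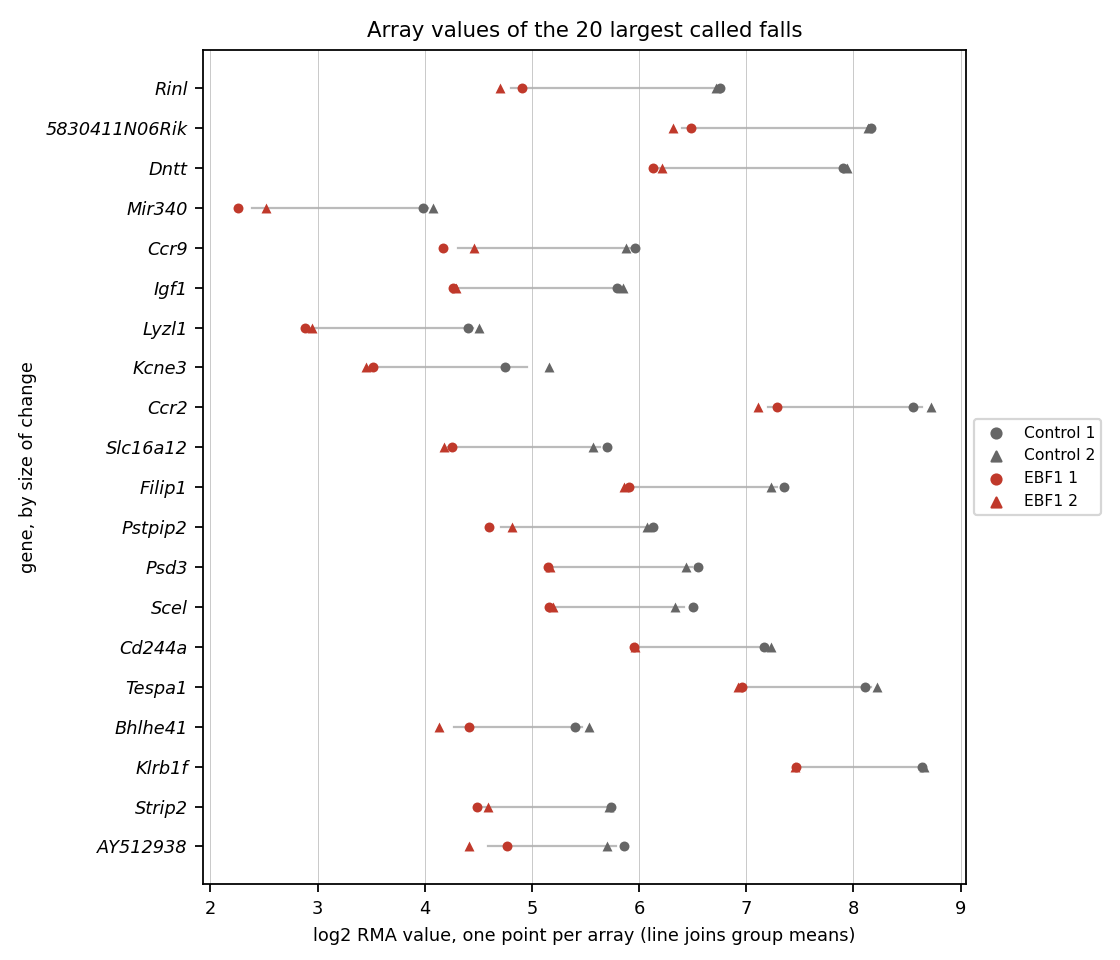
Array values of the 20 largest called falls, in order of size (y axis), with log2 RMA value on the x axis. Grey marks the 2 Control arrays and red the 2 EBF1 arrays. The EBF1 arrays lie below both Control arrays in every row, and those of Mir340 (2.26 and 2.52) are the dimmest.

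The lists of other lineages held both rises and falls, or few calls. Of 23 T-lineage genes, 3 were higher and 2 lower. Hes1, a repressor induced by Notch, went from 4.11 and 4.15 to 5.23 and 5.14 (1.06), and Notch1 from 7.06 and 7.02 to 8.04 and 7.88 (0.93). Gata3, a T-cell and innate lymphoid factor, went from 5.41 and 5.61 to 4.26 and 4.38 (-1.19). The groups were apart in each case, and none of the 3 was held. Tcf7 (0.34), Bcl11b (0.05) and Cd3e (0.13) were not called.

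Of 21 NK and innate lymphoid genes, 4 were lower and 1, Gzma, was higher. The falls were in receptor chains: Il2rb (-0.78), Il18r1 (-0.78), Il12rb2 (-0.70) and Il18rap (-0.45). Il18r1 showed the smallest spread, at 9.21 on both Control arrays and 8.43 on both EBF1 arrays. Of 26 myeloid and granulocyte genes, Cd33 (a sialic-acid-binding lectin, 5.17 and 5.13 against 6.13 and 6.26, held) and Cebpb rose, by 1.05 and 0.61. Itgam (CD11b), Adgre1 (F4/80) and Fcgr3 fell by 1.06, 0.72 and 0.59. Of the 5 myeloid markers tested 2 were lower (Itgam and Adgre1), their summed log2 level was 8.26 and 8.27 in Control and 7.67 and 7.83 in EBF1, and Csf1r and Cd14 lay under 4. The part of myeloid cells in these falls was not tested. Of 20 dendritic cell and MHC class II genes, 2 were lower: Siglech, a lectin of plasmacytoid dendritic cells (9.07 and 9.11 against 8.27 and 8.17), and Tlr7. The invariant chain Cd74 was not called (-0.10).

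Of 17 erythroid and megakaryocyte genes, 3 were higher and 0 lower. Gp9, a platelet glycoprotein, lay at 5.34 on both Control arrays and at 6.46 and 6.41 in EBF1, a rise of 1.10 that was held. The factors Nfe2 and Zfpm1 rose by 0.95 and 0.77. Among 25 stem and progenitor genes, 0 were higher and 4 lower (Hoxa5 -1.06, Cd27, Kit and Cd93). The EBF1 arrays lay below Control for 18 of the 25 and above for 3, beside 25.8% and 30.2% of all genes tested. The list's median was -0.224. Hoxa9 (-0.36), Flt3 (-0.33), Cd34 (-0.33) and Meis1 (-0.22) were among those not called.

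Of 33 chemokine receptors, chemokines and integrins, 9 were lower, 2 higher and 22 not called, against 2.46% lower and 3.14% higher among all genes tested. The EBF1 arrays lay below Control for 15 of the 33 and above for 11, beside 25.8% and 30.2% of all genes tested. The median change of -0.035 was 0.01 without EBF1 array 2. Ccr2 went from 8.55 and 8.73 to 7.29 and 7.11, and Ccr9 from 5.96 and 5.88 to 4.17 and 4.46. Itga4, the alpha4 integrin that binds VCAM1, went from 10.31 and 10.38 to 9.47 and 9.43, a fall of 0.90. Ccr2 and Ccr9 were held, and the Itga4 call was lost without 1 array. P2ry14, a receptor for UDP sugars, fell by 0.93 (held), Itgb7 by 0.69, P2ry10 by 0.77 and Cxcr5 by 0.40. The rises were Ccl5 (6.12 and 5.71 against 7.37 and 7.33, 1.44) and Ccr6 (0.56).

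Signalling lists held rises and falls. Of 32 Notch pathway genes, 7 were higher and 1 lower (3.14% and 2.46% of all genes tested), with a median of 0.092. With Hes1 and Notch1, the ligand Jag2 (0.81), the ubiquitin ligase Dtx4 (0.76) and the glycosyltransferase Mfng (0.75) rose, while the co-activator Maml2 fell by 0.56. Of 40 cytokine receptor and JAK-STAT genes, 3 were higher and 7 lower. Cish, a STAT5-induced inhibitor, went from 8.14 and 8.13 to 9.11 and 9.28 (1.06, held). Il10rb, a receptor chain shared by several interleukins, went from 8.52 and 8.49 to 7.54 and 7.56 (-0.95, held). Its partner Il10ra fell by 0.83 and the kinase Jak2 by 0.50.

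Of 41 Ras-MAPK regulators, 4 were higher (Dusp5 0.70, Spred2 0.68, Rasgrp2 0.56 and Etv5 0.46) and 1 was lower. Of 35 PI3K and mTOR genes, 1 was higher (Ddit4 0.60) and 4 were lower. Pik3r1, the regulatory subunit p85, fell by 0.58, Inpp4b by 0.50, Pik3cg by 0.47 and Sesn1 by 0.45. Among 28 NF-kB genes, Rel alone was called. Of 29 TNF superfamily genes, Lta and Tnfrsf9 (4-1BB) were higher and Cd27, Tnfsf8 and Tnfsf11 lower. Tnfrsf9 went from 6.44 and 6.39 to 8.04 and 8.10, a rise of 1.66 (SE 0.08) that was held.

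Cell cycle and survival genes changed in few members. Of 36 cyclins, CDKs and inhibitors, 4 were higher and 0 lower. The D-type cyclin Ccnd3 lay at 8.08 and 8.09 in Control and at 9.05 and 9.03 in EBF1 (0.95, SE 0.07, held). Cdkn1a (p21), an inhibitor of cyclin-dependent kinases, lay at 9.24 on both Control arrays and at 10.16 and 10.25 in EBF1 (0.97). Both an activator and an inhibitor of the cycle were therefore higher on the same arrays. Ccnd2 rose by 0.67 and Myc by 0.52, but a second Ccnd2 probe set moved by -0.17. Of 41 DNA replication and mitosis genes, Pold1 alone was called (0.58), and Mki67 (-0.12), Top2a (-0.04) and Mcm2 (0.03) were not.

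The p53 target list had 3 of 22 genes higher (Cdkn1a, Phlda3 0.86, Ddit4) and Sesn1 lower. In the BCL2 family, Bak1, a pore-forming killer protein, rose by 0.46 and Bcl2l11 (BIM) fell by 0.49, while Bcl2 (-0.35) and Mcl1 (-0.25) were not called. Of 16 V(D)J recombination and end joining genes, Dntt and Xrcc6 (Ku70, -0.56) were lower. Rag1 lay at 6.53 and 6.54 in Control and at 6.84 and 6.97 in EBF1, and Rag2 at 8.97 and 8.96 against 8.51 and 8.59. Neither RAG gene passed limma's threshold (adjusted p = 0.08 for Rag1 and 0.095 for Rag2), though their arrays did not overlap and lay in opposite directions.

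Ribosome biogenesis and nucleolar genes showed small differences in 1 direction. Of 47 tested, 3 were called, all higher: Polr1b (0.56), a subunit of RNA polymerase I, Gnl3 (0.47) and Heatr1 (0.38). The EBF1 arrays lay above Control for 43 of the 47 and below for 1, beside 30.2% and 25.8% of all genes tested. The list's median was 0.217, and its changes ran from -0.05 to 0.56. Npm1 and Ncl, 2 major nucleolar proteins, were not called (-0.04 and 0.02). Ribosomal protein genes gave another picture: 0 of 72 were called, with the EBF1 arrays above for 11 and below for 25 and a median of -0.018.

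Of 42 genes of the amino acid and unfolded protein responses, 7 were higher and 1 lower (3.14% and 2.46% of all genes tested). The list's median was 0.176, and the EBF1 arrays lay above Control for 30 members, beside 30.2% of all genes tested. Cth, an enzyme of cysteine synthesis, went from 7.40 and 7.30 to 8.35 and 8.14 (0.89). The transporter chain Slc7a5 rose by 0.56 and its partner Slc3a2 by 0.38, Asns (asparagine synthetase) by 0.47 and Pycr1, of proline synthesis, by 0.72. Ern1, a sensor of unfolded proteins, fell by 0.53, while the chaperone Hspa5 (0.08) and Xbp1 (-0.09) were not called.

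Of 40 cholesterol and fatty acid synthesis genes, 7 were higher and 1 lower. The rises were Fads2 (9.14 and 9.17 against 9.82 and 9.78, 0.65), Mvk (0.62), Dhcr7 (0.51), Fasn (0.49), Scd1 (0.48), Fads1 (0.43) and Acaca (0.35). They include Fasn and Acaca, the committed enzymes of fatty acid synthesis, and the desaturases Fads1, Fads2 and Scd1. Mylip, which targets the LDL receptor for degradation, fell by 0.47. Of 35 glycolysis and pentose phosphate genes, the lactate transporter Slc16a1 (0.53) and the regulator Pfkfb3 (0.42) rose and Eno3 fell (-0.40).

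Among 295 solute carriers, 20 were higher and 7 lower, with a median of 0.00. Slc25a1, the mitochondrial citrate carrier, went from 8.74 and 8.71 to 10.17 and 10.05, a rise of 1.39 (SE 0.09) that was held. Slc17a9, a vesicular nucleotide transporter, rose by 1.37 and the fructose transporter Slc2a5 by 1.01. Slc45a4 went from 5.86 and 5.82 to 6.91 and 6.92 (1.08). Slc35d3 fell by 1.15 and Slc14a1, a urea transporter, by 0.73, and Slc25a37 (mitoferrin, 8.90 and 8.89 against 8.30 and 8.30) by 0.59.

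Each of the remaining lists had at most 8 called members. Of 32 interferon response genes, Mx1 (0.62) and Ifitm2 (0.49) rose and Mx2 (-0.53), Ddx58 (-0.50) and Irf9 (-0.46) fell. Of 22 imprinted genes, H19 rose while Airn (-0.87) and Igf2r (-0.60), which lie at 1 imprinted locus, fell. Airn went from 7.27 and 7.31 to 6.40 and 6.44. It is transcribed antisense to Igf2r, and signal shared between the pair was not tested. Of 45 chromatin genes, Smarcd2 (0.76), Uhrf1 (0.60) and Cbx2 (0.59) rose and none fell. No histone gene was called (0 of 33). The EBF1 arrays lay above Control for 17 and below for 2, beside 30.2% and 25.8% of all genes tested. Zinc finger protein genes of the Zfp series had 2 rises and 6 falls among 318, and olfactory receptor genes 1 rise and 2 falls among 178.

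**Figure D4:**
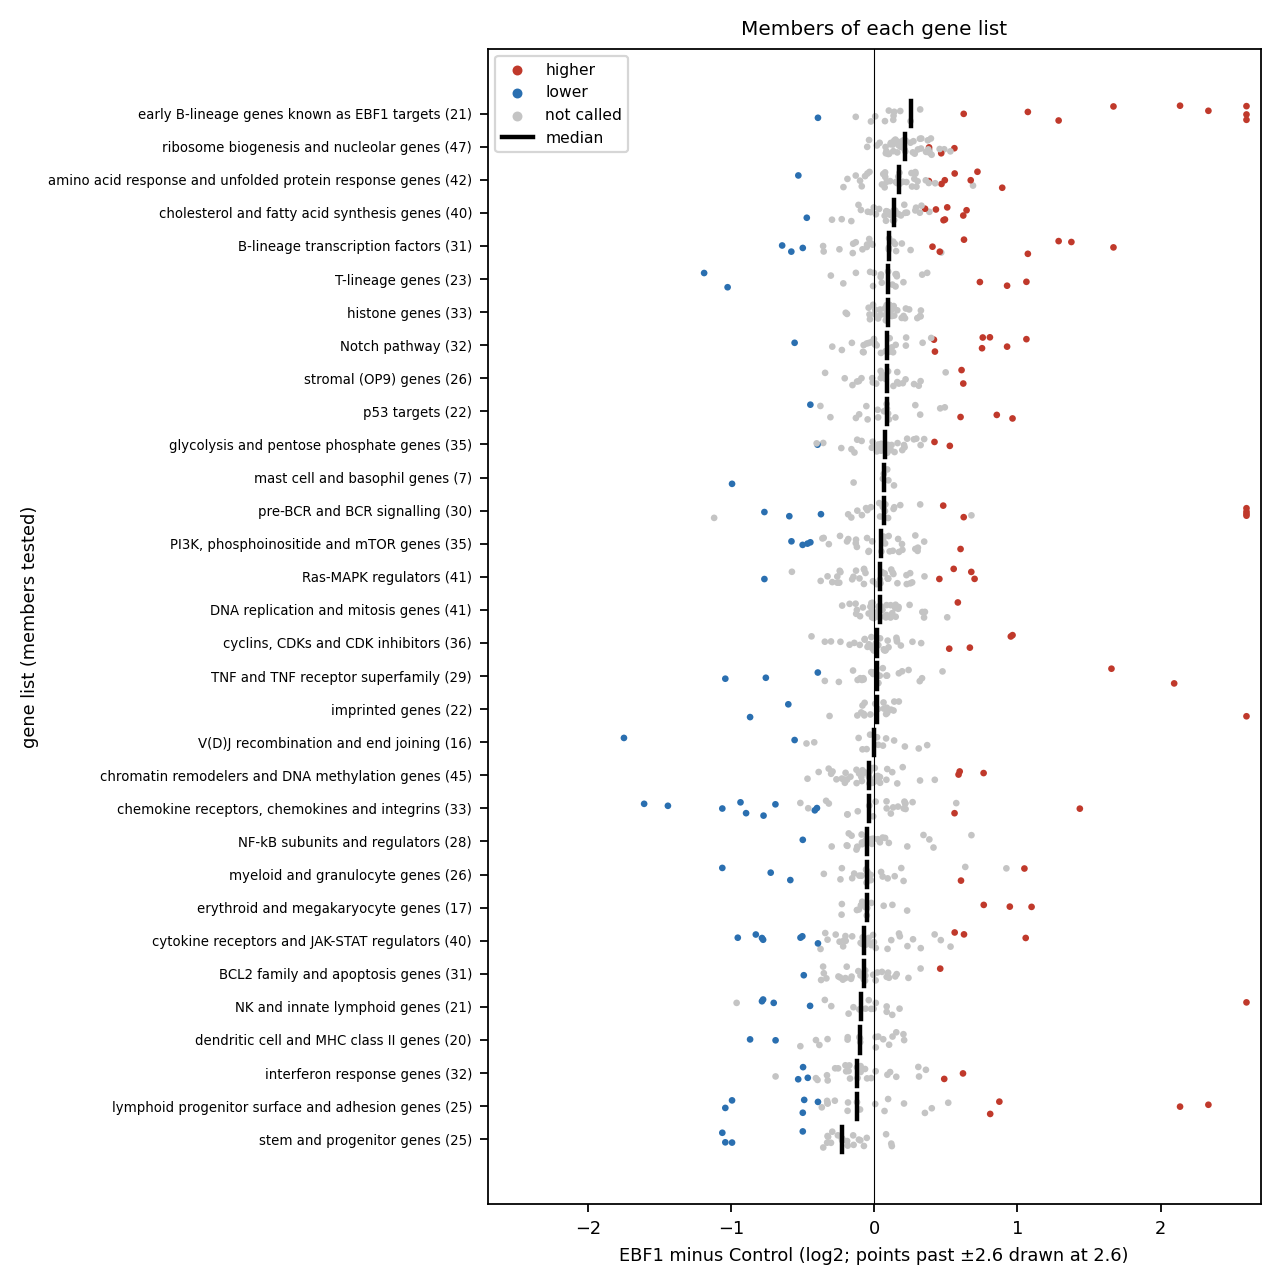
Each row is a gene list with its number of members tested, each point the EBF1 minus Control difference of 1 member (x axis, log2), and each black bar the list's median. Red points are called higher, blue points lower and grey points not called. The medians run from -0.224 (stem and progenitor genes) to 0.254 (early B-lineage genes), and 6 genes beyond 2.6 are drawn at that value.

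Among bright probe sets, those with both group means above 9, changes were small but tight. Ucp2, an uncoupling protein of the inner mitochondrial membrane, lay at 9.56 and 9.57 in Control and at 10.67 and 10.66 in EBF1. Its rise of 1.10 (SE 0.07, limma adjusted p = 0.0017) was held. The next rises were Cdkn1a, Cd52, Crip1 (0.74), a LIM-domain protein, and Atp1b3 (0.70), a subunit of the sodium-potassium pump. Lrrc8c (0.69), of the volume-regulated anion channel, and Srm (0.60), which makes spermidine, followed. The largest bright fall was Itga4. The others lay between -0.55 and -0.45 and included Clec2i (9.87 and 9.88 against 9.34 and 9.32), the splicing kinase Clk1 (-0.53), Gpr171 (-0.51) and the nuclear RNA Malat1 (-0.45). None of the bright falls was held.

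Of 156 microRNA probe sets, 6 were lower and 0 higher, against 2.46% lower and 3.14% higher among all genes tested. The EBF1 arrays lay below Control for 62 and above for 10, beside 25.8% and 30.2% of all genes tested. The list's median was -0.108. MicroRNAs are short RNAs that pair with messages through a seed, bases 2 to 8 of the mature strand. Mir340 went from 3.98 and 4.07 to 2.26 and 2.52, with the EBF1 values below the lower quartile of their arrays. Mir365-1 went from 4.21 and 4.45 to 3.31 and 3.14, a fall of 1.10, and Mir103-2 from 5.60 and 5.43 to 4.64 and 4.57, a fall of 0.91. Mir186 (-0.70), Mir15a (-0.66) and Mir17 (-0.45) fell less. None of the 6 was held. These probe sets read the transcript of the locus and do not separate precursor from mature strand.

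The mature strands of the called loci are shown to let their seeds, in capitals, be compared (RefSeq, GRCm38.p6, 1 strand per locus). No whole seed is shared, also among both strands of all 6 loci. The seeds of miR-103-3p and miR-15a-5p both hold the letters GCAGCA, shifted by 1 base.
miR-340-5p: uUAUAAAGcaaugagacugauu
miR-365-3p: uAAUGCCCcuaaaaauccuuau
miR-103-3p: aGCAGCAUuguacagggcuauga
miR-186-5p: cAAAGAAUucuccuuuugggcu
miR-15a-5p: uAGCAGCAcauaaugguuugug
miR-17-5p: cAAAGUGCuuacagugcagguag

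Among 51 small nucleolar RNAs, 3 rose (Snora73a 0.62, Snora73b 0.59, Snora20 0.38) and Snord53 fell by 0.48. Of 280 long non-coding RNAs, 7 were higher and 8 lower (5.36% called, near the 5.6% of all genes tested). Of 26 antigen receptor V segments, 3 were lower, Trav2 by 1.09, Ighv1-72 by 0.93 and Trav14d-1 by 0.84. Calls were in protein-coding genes for 467 of the 480 rises and 336 of the 377 falls, and such genes made up 14176 of the 15295 tested.

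Called genes often lay beside each other on the chromosome. With genes in RefSeq order, 10.9% of the 958 genes next to a gene called higher were themselves called higher, against 3.0% of the 28193 positions next to a gene not called. Beside genes called lower, 11.8% of 711 were called lower, against 2.19%. Calls in the opposite direction were rarer beside a called gene, at 0.939% and 1.27%. This count was made after the calls were known, a pair of called neighbours counts from both sides, and overlap of transcripts or probe cross-hybridisation between neighbours was not tested.

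The genes around the largest rises show it locally; these neighbours were chosen after their values were seen. Of 69 tested genes within 2 positions of the 19 placed, 12 were called higher (17.4%) and 1 lower. On chromosome 8, 9330175E14Rik (3.36), Nlrc5 (0.69), Cpne2 (2.17) and Rspry1 (0.51) rose in a run of 5 tested genes. On chromosome 16, Slc25a1 (1.39) lay beside Vpreb2, and Igll1 lay beside Vpreb1, where Spag6l (0.21) and Top3b (0.01) were not called. Flrt1 lay beside 5730409K12Rik (1.53), Ly6d beside Lynx1 (1.28) and Cracdl beside Mgat4a (0.93). B3gnt8 was followed by Bckdha (0.71) and Exosc5 (0.46). Of 70 tested genes around the largest falls, 9 were lower (12.9%) and 3 higher, among them Fyco1 (-0.66) between Ccr9 and Ccr2, and Clec2d (-0.62) and Clec2i near Klrb1f.

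**Figure D5:**
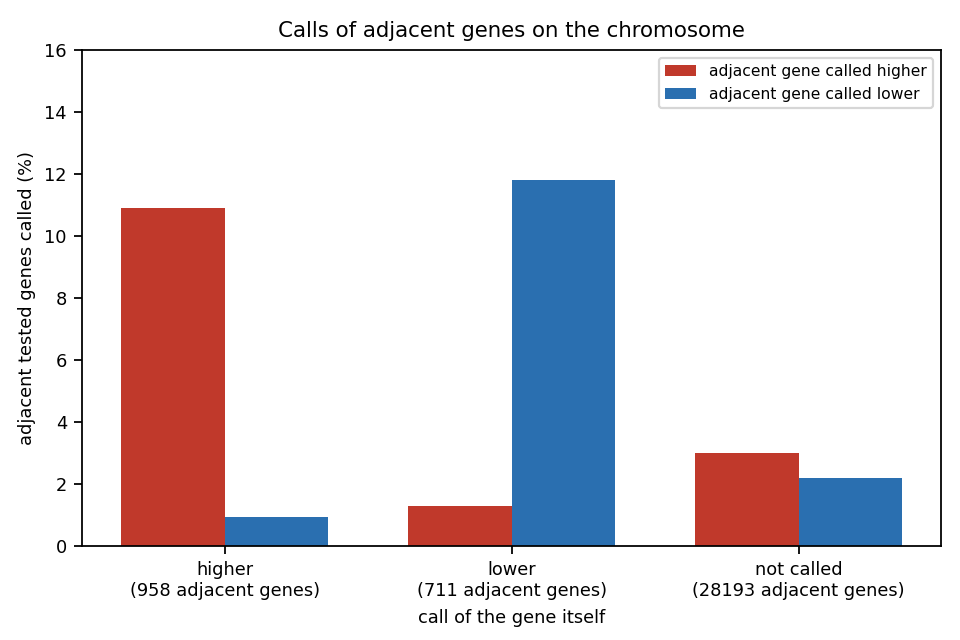
Bars give the share (%) of adjacent tested genes called higher (red) or lower (blue), for genes grouped on the x axis by their own call, with the number of adjacent genes under each group. The same-direction bars stand at 10.9% and 11.8%, against 3.0% and 2.19% beside genes not called.

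The letters CCCNNGGG were counted in the promoter windows, which 11535 of the tested genes have. The motif reads the same on both strands, and it also lies inside a longer form with T before it and A after it. The shorter motif occurred in 13.7% of all 32851 windows and in 20.7% of the tested genes. Among genes called higher it occurred in 104 of 379 (27.4%), and among those called higher by 2-fold or more in 27 of 80 (33.8%). Among genes called lower it occurred in 64 of 285 (22.5%), and among genes not called in 20.5%. The longer form occurred in 5 of 379 genes called higher (1.32%), 5 of 285 called lower (1.75%) and 1.28% of all tested. The base composition of the windows was not matched between these groups, and the shares were not tested.

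The level with EBF1 was also tested against that with Pax5, in the same limma model. Both contrasts use the same EBF1 arrays, so genes picked for a high or low EBF1 value lean to the same side here. The overlap counts below are therefore a description and not a separate test. This contrast called 13.9% of all genes tested, 8.71% higher in EBF1 and 5.2% lower. Of the 480 genes called higher than Control, 382 were also higher than Pax5, 10 were lower and 88 were not called. Of the 377 called lower than Control, 191 were also lower than Pax5, 8 were higher and 178 were not called. Cd79b exceeded its Pax5 level by 5.36, Vpreb2 by 5.12, Vpreb1 by 3.53 and Igll1 by 2.74 (SE 0.19), so that Igll1, at 7.51 and 7.71 on the Pax5 arrays, had the smallest gap of the 4. Among the falls, Ccr2 differed from its Pax5 level by -1.76 and Rinl by -1.60.

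Many called genes did not follow this split, as the counts above show, and some of them are given here. Cd24a, higher than Control by 2.14, differed from its level with Pax5 by -0.93 (limma adjusted p = 0.0023). Lta did not pass the test against Pax5, with EBF1 arrays at 7.42 and 7.44 and Pax5 arrays at 7.68 and 7.53. Dntt missed the threshold (-0.48, limma adjusted p = 0.054). Arhgap6, a GTPase-activating protein that fell by 0.93 against Control (7.17 and 7.21 against 6.24 and 6.28, held), was not called against Pax5 (-0.07). P2ry10 (-0.06) and Il18r1 (-0.10), both lower than Control, were also not called against Pax5. Il7r, Clnk (an adaptor of immune receptors), Tnfsf11 (RANKL) and Gria3 (a glutamate receptor subunit) fell against Control but lay above Pax5, by 0.39, 0.44, 0.54 and 0.65.

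The authors' deposited table gives its own test of EBF1 against the MigR1 control for each probe set. In that table, 3735 probe sets had a p-value under 0.05, among them those of all 857 genes called here. After its step-up adjustment 6 probe sets stayed under 0.05, and 4 of the 857 called genes were among them. In the authors' deposited table Ucp2 had the smallest step-up p (0.00124), followed by Ccnd3, Crot and Ptger4 at 0.0134. Crot, a peroxisomal carnitine transferase, was not called here (8.72 and 8.72 against 8.39 and 8.39, -0.33). None of the 20 largest called rises was among these 6.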

How the data were processed

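The deposited log2 values were made by the authors with RMA and Partek 6.5, per the submitters' processing notes. Not given in the sources used here are the RMA options and the annotation version. Per the file headers, a deposited table adds the authors' p-value for each probe set, also after a step-up adjustment. Of 28350 probe sets, 22969 carried 1 symbol, 2285 several and 3096 none. Gene IDs matched RefSeq (GRCm38.p6) for 22138, and 2532 received a newer symbol. The probe set with the highest mean over 6 arrays stood for a gene. Genes above the 30th percentile on at least 2 arrays (15295) were tested with limma 3.58.1 in R 4.3.3 (3 group means, eBayes, two-sided, 3 residual and 3.18 prior degrees of freedom), with Benjamini-Hochberg adjustment. Every SE and interval is limma's. The pipeline was tested on simulated data with known changes. There is no detection call, and precision is limited by the number of arrays.

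The comparison and gene lists were chosen with earlier results of these data known. The text names the vector and marker genes, the 20 largest called rises and falls, the 10 largest among genes with both means above 9, and in each list up to 6 called and 3 bright uncalled members. Further list members, neighbours and genes compared with Pax5 were added after their values were seen. Alternatives covered the filter, the probe set rule, the model of the spread, quantile normalization, the replicate block and leaving out each array. Some genes and 1 gene list are not reported here.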

Additional observations from a re-analysis of the deposited data

How the results depend on the processing

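No gene that was both called and named by the rule reversed its direction under any of the 13 settings run, while some uncalled genes changed sign. For called genes most settings could not reverse it. Their EBF1 and Control arrays did not overlap, so leaving out 1 array could not turn the sign. The filter, spread and block settings leave the difference of means as it was. Only averaging the probe sets and the repeated quantile normalization could have changed a direction. The 857 calls became 1424 with the spread of the 4 Control and EBF1 arrays alone, 1324 with a filter at the 50th percentile and 1786 with limma's trend and robust options. Rises went from 480 to 806, 744 and 1029 in these fits, and falls from 377 to 618, 580 and 757. Without a filter there were 243 falls. Same-numbered arrays did not deviate together across all genes (correlations 0.009, 0.007 and -0.012). This cannot exclude a pairing that touches only some genes. With a replicate block 565 genes were called, 231 of them lower, and 550 were shared with the 857. Leaving out 1 array in turn gave 103 to 1424 calls, 69 to 806 rises, 29 to 618 falls and 84 to 152 changes of at least 2-fold, against 150. The low ends came from leaving out a Control or EBF1 array (109 and 103 calls without Control 1 and 2, 106 and 123 without EBF1 1 and 2), where the lone array is assumed to vary like the other groups. The 2128 calls of EBF1 against Pax5 ranged from 410 to 3884, lowest without EBF1 1 and highest without Pax5 1. The median change of all genes stayed between -0.002 and 0.023, and 27 of 39 list medians kept their sign. Dim probe sets limit what can be seen: 3 called rises and 2 called falls had a group mean below the lower quartile.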

Other observations

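The groups of genes below were put together after their values were seen, so their counts support nothing beyond the values. Enzymes of purine and pyrimidine synthesis had 5 of 18 members higher and 0 lower, with a median of 0.201. Impdh1, 1 form of the rate-limiting enzyme of guanine nucleotide synthesis, went from 4.77 and 4.83 to 6.76 and 6.83, a rise of 2.00 (SE 0.09). Umps (0.66) and Cad (0.59) of the pyrimidine branch and Gart (0.43) and Atic (0.38) of the purine branch rose less. Impdh2, the other form of the Impdh1 enzyme, lay at 9.44 and 9.63 in Control and at 9.76 and 9.75 in EBF1. Its difference of 0.22 was not called. A list of fatty acid import and oxidation genes had 5 of 23 members called higher and 0 called lower, with a median of 0.132. Cpt1a, which loads long-chain fatty acids for entry into mitochondria, went from 5.70 and 5.56 to 6.96 and 7.07, a rise of 1.39. Acsl1, which activates fatty acids, went from 7.51 and 7.54 to 8.47 and 8.45, a rise of 0.93. Ech1 (0.66) and Eci1 (0.43), enzymes of beta oxidation, also rose, but neither was held. The other rise was the uncoupling protein Ucp2 (1.10), which is not an enzyme of these steps. Crot, also in the list, differed by -0.33 and was not called here, though it passed the authors' step-up adjustment.

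A list of striated muscle genes, mostly contractile, had 5 of 22 members higher and 0 lower, in a lymphoid cell line. Its median was 0.105. Besides Tnnt2, Myl4 (a myosin light chain) went from 8.31 and 8.30 to 9.65 and 9.62, and Tnni2 (a troponin inhibitor subunit) from 6.82 and 6.75 to 8.12 and 8.13. These rises were 1.33 and 1.34, and Tpm2 (tropomyosin) rose by 0.75. Mymk, a fusion protein of muscle precursors and not a contractile gene, went from 4.78 and 4.73 to 6.81 and 6.60. Of these 5 genes Tnni2 alone was held. Inhibitory receptors of T and NK cells had 4 of 9 members lower and 0 higher, with a median of -0.072. The members not called were Cd96 (0.26), Vsir (0.08), Havcr2 (0.00), Lair1 (-0.04) and Cd160 (-0.07). Tigit went from 6.79 and 6.74 to 5.66 and 5.69, Pdcd1 (PD-1) from 5.71 and 5.90 to 4.74 and 5.00, and Ctla4 from 6.30 and 6.32 to 5.51 and 5.06. With Cd244a they fell by 1.09, 0.93, 1.02 and 1.24, and Cd244a alone was held. Of 8 killer lectin receptors of the Klrb1 group and their Clec2 ligands, 3 were lower. The adjusted p-values behind these counts are limma's over all genes tested.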
